A study of Homo sapiens with 6 samples.

Results

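Desmosome components are represented by 10 of the 20812 genes measured: the desmosomal cadherins DSG2, DSG3, DSC2 and DSC3, the armadillo proteins JUP, PKP1, PKP2 and PKP3, the plakin DSP and the tetraspan membrane protein PERP. The 10 were taken by gene symbol as structural components of the desmosome, with no measured value as a criterion, though earlier results of these data were known. Transcriptomes of the benign, non-tumorigenic mammary epithelial cell line MCF10A were sequenced in 6 libraries, to learn how overexpression of the potassium channel subunit GIRK1 (gene KCNJ3) alters the cells. The groups were untransfected wild type cells (WT), cells carrying the pIRES2eGFP plasmid without an insert (eGFP) and cells carrying the same plasmid with the human GIRK1 coding sequence ahead of eGFP (GIRK1), with 2 libraries in each. Both transfected lines were made with Lipofectamine from a linearized plasmid selected with G418 and isolated by eGFP sorting, so the transgene is driven by the plasmid and not by the KCNJ3 promoter, and all cells were collected before confluence by trypsinization. Each gene was read as 1 short amplicon (Ion AmpliSeq Transcriptome), and its level is given in RPM, the amplicon's reads per 1000000 reads of the library. The totals were 2506120 and 16040556 reads for WT replicates 1 and 2, 5126930 and 10233974 for eGFP, and 11107309 and 10346572 for GIRK1. The smallest level given as detectable is 3 reads, which was 1.20, 0.187, 0.585, 0.293, 0.270 and 0.290 RPM in that order. Amplicons differ in how well they amplify, so levels are compared between libraries for 1 gene and not between genes. The deposited names of both GIRK1 libraries carry a tag that the other 4 lack, and if it marks a sequencing run, run and overexpression cannot be told apart.

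Desmosomes are junctions that fasten epithelial cells to each other and anchor their keratin filaments. Desmogleins and desmocollins span the membrane and bind those of the neighbouring cell, plakoglobin (JUP) and the plakophilins bind the cadherin tails, and desmoplakin (DSP) links this plaque to keratin. In mammary epithelium both the basal and the luminal layer form desmosomes, and DSG3 and DSC3 are known as cadherins of basal and stratified layers.

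The labels were checked before the desmosomal genes were read. KCNJ3 was read 2408 and 3677 times in the GIRK1 libraries, or at 216.8 and 355.4 RPM, and not once in eGFP or in WT replicate 2, so its mean level was at least 489-fold higher than the 3-read level of the shallowest of those 3 controls. The library labelled WT replicate 1 had 48 reads of KCNJ3, or 19.2 RPM, and went against its label in other ways. It had 2 reads of KRT5, a keratin of basal cells, where the other 5 libraries had between 41922 and 61946, and 0 reads of KRT14 and KRT17. It held 481 reads of the oestrogen receptor ESR1, 157 of the progesterone receptor PGR, 12796 of TFF1 and 2315 of KRT19, all at 0 reads in the other 5 libraries. Summed over 12 luminal markers the level was 19619 RPM in that library, of which TFF1 made up 5106, against 595 to 1146 RPM elsewhere. Over 8 basal markers the sum was 473 RPM, of which ITGB4 made up 334, against 7771 to 14956 RPM. TP63, the factor that defines basal cells, had 0 reads in every library, so the basal character of the other 5 rests on the other listed markers. Listed immune markers summed to 0 RPM in that library and to 22.0 to 45.4 RPM elsewhere, all of it from CD14 and CD68, with PTPRC, CD3E and LYZ at 0 reads in every library. Endothelial markers summed to 0.677 to 1.89 RPM, with a few reads of PECAM1 and KDR and 0 reads of VWF and CDH5. The library labelled WT replicate 1 was therefore kept out of the control group and is described apart.

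Among the 3 remaining controls (both eGFP libraries and WT replicate 2) and the 2 GIRK1 libraries, 9 of the 10 desmosomal genes were read in every library and PKP1 had a single read in all. DSP had the highest values with GIRK1, at 627.5 and 1100.4 RPM against 320 to 391 RPM in the controls. PKP2 and DSC3 also had higher values than in eGFP, DSC2 slightly lower ones, and PKP3 nearly equal ones. No desmosomal gene passed an adjusted p of 0.05 in edgeR's quasi-likelihood fit, where p-values were adjusted by Benjamini-Hochberg over all genes tested. Few genes of any kind did, 1.53% against eGFP and 1.21% against the 3 controls. DSP passed in some other settings, the DESeq2 test among them. The library labelled WT replicate 1 had 0 reads of DSC3 and DSG3, 1 read of DSC2 and 33 reads of PKP1.

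**Figure D1:**
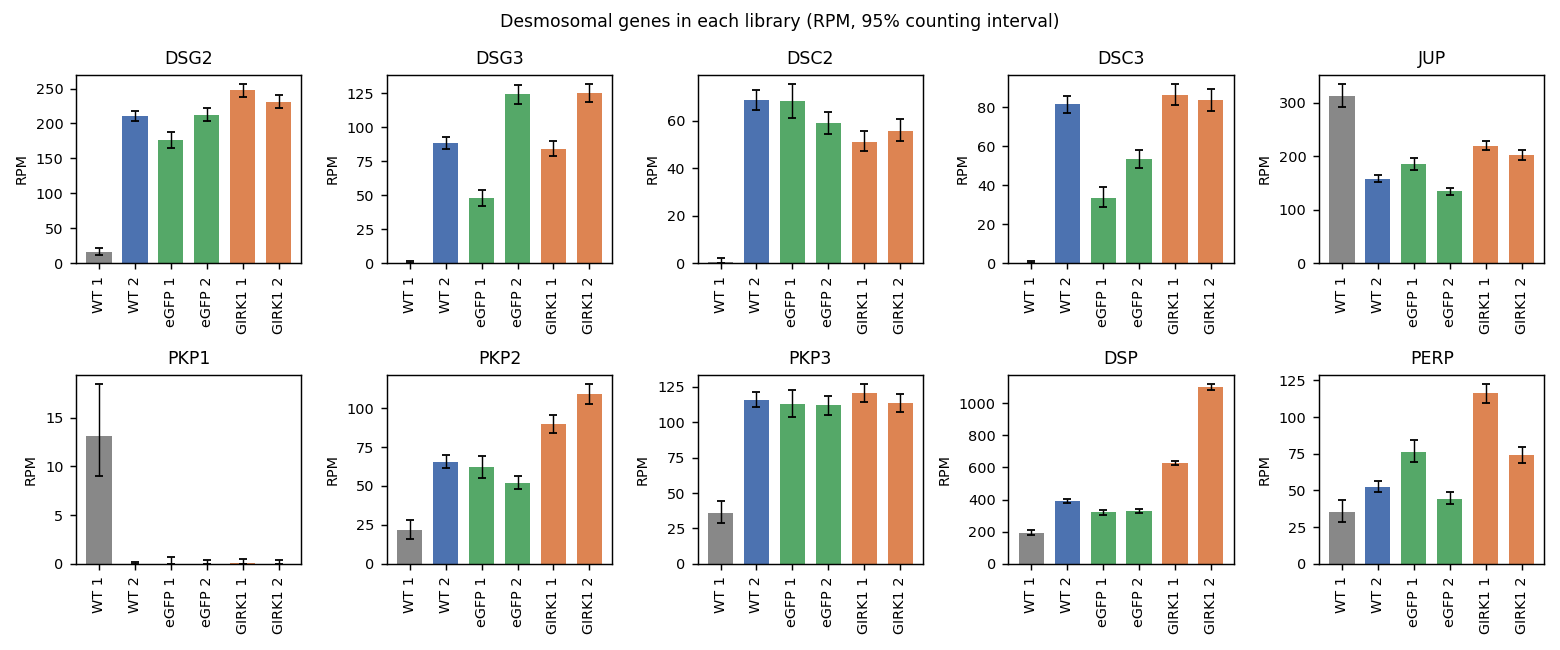
RPM (vertical axis, linear and starting at 0, with its own scale for each gene) of the 10 desmosomal genes in each of the 6 libraries (horizontal axis). Bars are single libraries and error bars are exact 95% counting intervals. DSP stands highest in the 2 GIRK1 libraries, at 627.5 and 1100.4 RPM, and DSG3, DSC2 and DSC3 are at or near 0 in WT 1.

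DSG2, DSG3, DSC2 and DSC3 lie together on chromosome 18, within 559001 bases (GRCh38, GENCODE annotation, positions 30990008 to 31549008), and the other 6 genes lie elsewhere. The stretches before the start sites of 4 genes are shown, because 0 reads of DSC3 and DSG3 were counted in the library labelled WT replicate 1, because PKP1 was read there, and because DSP differed most between GIRK1 and the controls. Each is the 250 bases upstream of the gene's start (RefSeq, GRCh38.p14), read 5′ to 3′ on the gene's strand. GENCODE places some starts further upstream, and by it the downstream ends of the DSC3, PKP1 and DSP stretches lie inside the gene. Capitals mark matches on either strand to the E-box CAGGTG or to the GC box GGGCGG, and matches to the same motif may overlap. The positions are chr18:31447491-31447740 (plus strand) for DSG3, chr18:31042743-31042992 (minus strand) for DSC3, chr1:201283256-201283505 (plus strand) for PKP1 and chr6:7541421-7541670 (plus strand) for DSP.
DSG3: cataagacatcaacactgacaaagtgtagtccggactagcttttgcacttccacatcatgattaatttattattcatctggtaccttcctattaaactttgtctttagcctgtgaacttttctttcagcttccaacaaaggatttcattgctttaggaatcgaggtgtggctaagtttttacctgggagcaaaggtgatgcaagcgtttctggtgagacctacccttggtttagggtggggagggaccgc
DSC3: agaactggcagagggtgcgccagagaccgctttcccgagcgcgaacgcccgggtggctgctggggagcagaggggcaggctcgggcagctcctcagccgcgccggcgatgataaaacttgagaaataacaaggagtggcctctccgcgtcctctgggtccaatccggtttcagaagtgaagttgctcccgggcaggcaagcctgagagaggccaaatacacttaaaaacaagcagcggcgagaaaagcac
PKP1: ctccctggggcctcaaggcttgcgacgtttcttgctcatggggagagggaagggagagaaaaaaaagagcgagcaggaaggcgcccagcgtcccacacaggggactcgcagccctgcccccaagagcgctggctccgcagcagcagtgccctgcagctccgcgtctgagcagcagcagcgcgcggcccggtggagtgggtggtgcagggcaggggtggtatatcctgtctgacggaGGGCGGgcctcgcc
DSP: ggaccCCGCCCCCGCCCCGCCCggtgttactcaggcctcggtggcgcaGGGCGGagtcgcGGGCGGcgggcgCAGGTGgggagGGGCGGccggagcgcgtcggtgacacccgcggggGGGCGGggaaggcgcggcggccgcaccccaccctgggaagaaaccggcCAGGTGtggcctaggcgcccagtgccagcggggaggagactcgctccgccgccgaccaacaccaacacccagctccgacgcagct

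These 4 stretches differed in base composition and in motif content. GC content was 42.8% for DSG3, 60.4% for DSC3, 67.6% for PKP1 and 78% for DSP, against a median of 58% over 35114 promoters of the same length. The DSG3 and DSC3 stretches held neither motif, that of PKP1 held 1 GC box and that of DSP held 2 E-boxes and 7 GC boxes. RefSeq promoters were matched for 8 of the 10 genes (10 promoters, since DSC2 and JUP have 2 each). CAGGTG stood in 4 of the 10 and in 17.5% of all promoters, and GGGCGG in 7 of the 10 and in 42.6% of all. AACNNGTT, the sequence that Grainyhead-like factors prefer, stood in 0 of the 10 and in 3.00% of all. A match is a run of letters and not a measured binding site.

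GIRK1 was compared with eGFP first (4 libraries, 11270 genes passing the filter on low counts). Of the 9 desmosomal genes tested, 0 had an adjusted p below 0.05, where 1.53% of all genes did. At an unadjusted p below 0.05 there were 3 (DSP, DSC3 and PKP2), all higher in GIRK1, where 8.43% of all genes were higher and 10.7% lower at that level. The DESeq2 test passed 1 (DSP, adjusted p = 0.00161), where it passed 6.15% of all genes. Their log2 fold changes ran from -0.29 to 1.38 with a median of 0.35, against 0.01 over all genes, and 8 of the 9 were positive against 51.1% of all genes. Leaving out any 1 library left 7 of the 9 positive. Adding WT replicate 2 to the controls (5 libraries, 11380 genes) gave 0 of 9 at the adjusted threshold, where 1.21% of all genes passed, and 2 of 9 (DSP and PKP2) at the unadjusted one, where 8.59% were higher. DESeq2 passed those same 2 (adjusted p = 0.000635 for DSP and 0.0470 for PKP2), where it passed 7.04% of all genes. The median was then 0.38, against -0.01 over all genes, with 8 of 9 positive against 49.3%. These comparisons share the GIRK1 and eGFP libraries and are not independent of each other. The labels do not say whether replicates came from separate cultures. By the design text the replicates of a group would be 2 lines, and by the methods they are replicates. The p-values therefore measure the spread between these libraries, which may be technical. In bulk RNA, fewer cells of a kind and less RNA per cell cannot be told apart.

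**Figure D2:**
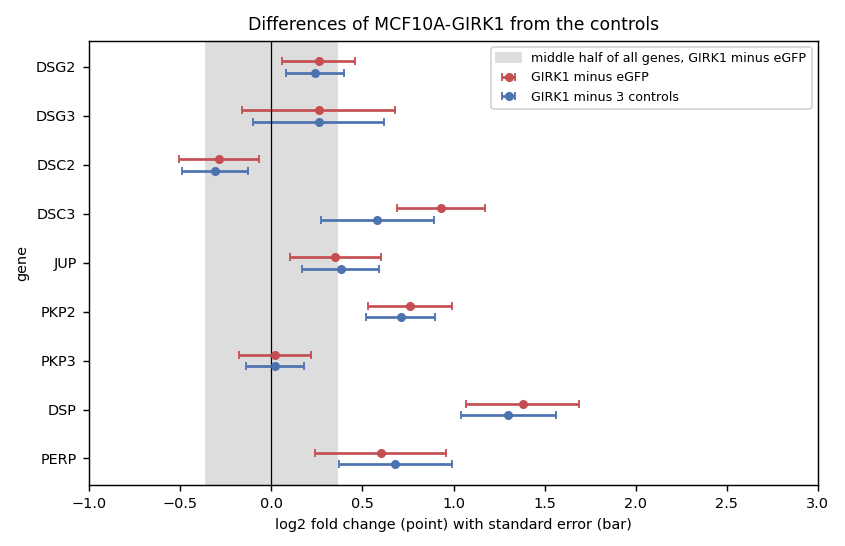
Log2 fold change of GIRK1 against eGFP (red) and against both eGFP libraries and WT replicate 2 (blue) for the 9 desmosomal genes tested (vertical axis), from edgeR's quasi-likelihood fit, with bars of 1 standard error. The grey band spans the middle of all genes, from the lower to the upper quartile (-0.36 to 0.36) against eGFP, and DSP, DSC3, PKP2 and PERP lie to the right of it in both comparisons.

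Both GIRK1 libraries lay above all 3 controls for 5 of the 9 genes (DSG2, DSC3, JUP, PKP2 and DSP), as they did for 21.6% of the 11380 genes. DSC2 alone lay below all 3, as did 19.5% of genes. The remaining 3 (DSG3, PKP3 and PERP) overlapped.

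Among the desmogleins, DSG2, which most epithelia carry, measured 175.9 and 212.3 RPM in eGFP, 210.8 RPM in WT replicate 2 and 247.7 and 230.6 RPM in GIRK1. Both GIRK1 values stood above all 3 controls, by less than the controls differed from each other. The means were 194 ± 25.7 RPM (SD, n = 2) in eGFP and 239 ± 12.1 RPM in GIRK1. On the log2 scale the fold change was 0.26 ± 0.20 (standard error), with a 95% interval of -0.22 to 0.74 (adjusted p = 0.502, edgeR with Benjamini-Hochberg adjustment).

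DSG3, the desmoglein of basal layers, measured 47.8 and 124.0 RPM in eGFP, 88.3 RPM in WT replicate 2 and 84.2 and 125.0 RPM in GIRK1. The GIRK1 values lay inside or just above the range that the 2 eGFP libraries spanned, and DSG3 was the only desmosomal gene that differed 2-fold or more between those 2 eGFP libraries, as 12.8% of genes did. Its log2 fold change against eGFP was 0.26 with an interval of -0.74 to 1.26 (adjusted p = 0.760, edgeR with Benjamini-Hochberg adjustment), an interval that holds both no difference and one of more than 2-fold. Without eGFP replicate 1 the sign turned, to -0.23, and without eGFP replicate 2 the value was 1.03. Over all genes, 15.5% differed 2-fold or more between eGFP replicate 1 and WT replicate 2. Between eGFP replicate 2 and WT replicate 2 the share was 2.51%, so eGFP replicate 1 stood further from the other controls. The cause was not tested.

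The desmocollins had values of opposite sign. DSC3, the basal desmocollin, measured 33.5 and 53.4 RPM in eGFP, 81.4 RPM in WT replicate 2 and 86.4 and 83.4 RPM in GIRK1. GIRK1 lay well above both eGFP libraries and only just above WT replicate 2. Its log2 fold change was 0.93 against eGFP (standard error 0.24; adjusted p = 0.121, edgeR with Benjamini-Hochberg adjustment) and 0.58 against the 3 controls (adjusted p = 0.363). The latter became 0.35 without eGFP replicate 1 and 0.93 without WT replicate 2. Against WT replicate 2 alone it was 0.08, with an interval of -0.62 to 0.78. The difference between eGFP and WT replicate 2 was of a like size, at -0.85 on the log2 scale (standard error 0.29; adjusted p = 0.953, edgeR, Benjamini-Hochberg). DSC3 was the 1 desmosomal gene of 9 past the unadjusted threshold there, as 1.40% of genes were in the downward direction, and 0 of 11770 genes passed the adjusted one (418, or 3.55%, at an unadjusted p below 0.05 in edgeR, and 5 adjusted in DESeq2).

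DSC2, the desmocollin of wide distribution, measured 68.1 and 58.8 RPM in eGFP, 68.6 RPM in WT replicate 2 and 51.2 and 55.8 RPM in GIRK1. It was the 1 desmosomal gene with both GIRK1 values under every control. Means of 63.4 ± 6.54 RPM in eGFP and 53.5 ± 3.21 RPM in GIRK1 (SD, n = 2) differed by -0.29 on the log2 scale (standard error 0.22, interval -0.81 to 0.23; adjusted p = 0.500, edgeR with Benjamini-Hochberg adjustment). It became -0.125 without eGFP replicate 1 and -0.450 without eGFP replicate 2.

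Plakoglobin (JUP), which is shared by desmosomes and adherens junctions, measured 185.5 and 134.4 RPM in eGFP, 158.2 RPM in WT replicate 2 and 220.0 and 202.4 RPM in GIRK1. Both GIRK1 values lay above the 3 controls. The log2 fold change was 0.35 against eGFP (interval -0.25 to 0.96) and 0.38 against the 3 controls (interval -0.12 to 0.87), with adjusted p = 0.480 and 0.376 (edgeR, Benjamini-Hochberg). Against eGFP it became 0.664 without eGFP replicate 1 and 0.084 without eGFP replicate 2.

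Of the plakophilins, PKP2, the form found in simple epithelia and in basal cells, measured 62.0 and 52.1 RPM in eGFP, 65.6 RPM in WT replicate 2 and 89.7 and 109.1 RPM in GIRK1. The groups did not overlap, and the lower GIRK1 library stood clear of the highest control. Means of 57.1 ± 7.03 RPM and 99.4 ± 13.8 RPM (SD, n = 2) differed by 0.76 on the log2 scale (standard error 0.23; adjusted p = 0.160, edgeR with Benjamini-Hochberg adjustment). Against the 3 controls it was 0.71 (standard error 0.19; adjusted p = 0.132, edgeR, Benjamini-Hochberg) and against WT replicate 2 alone 0.62 (interval -0.07 to 1.31).

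PKP3, a plakophilin of most epithelia, measured 112.9 and 111.9 RPM in eGFP, 115.8 RPM in WT replicate 2 and 120.6 and 113.7 RPM in GIRK1. All 5 values lay close together, and the log2 fold change against eGFP was 0.02 with an interval of -0.45 to 0.49. PKP1, the plakophilin of stratified and squamous epithelia, had 1 read in GIRK1 replicate 1 and 0 reads in the other 4 of these libraries, at or under the 3-read level in each, so a difference was not detectable at this depth.

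DSP, which ties the plaque to keratin filaments, measured 319.7 and 326.9 RPM in eGFP, 391.1 RPM in WT replicate 2 and 627.5 and 1100.4 RPM in GIRK1, from 1639 to 11385 reads. Every GIRK1 value exceeded every control, and the 2 GIRK1 libraries differed more from each other than the controls did. The means were 323 ± 5.07 RPM in eGFP and 864 ± 334 RPM in GIRK1 (SD, n = 2), or 1.38 apart on the log2 scale (standard error 0.31, interval 0.64 to 2.12). It ranked 394 of 11270 genes by p-value, and its adjusted p was 0.0927 (edgeR's quasi-likelihood test, Benjamini-Hochberg). Against the 3 controls the log2 fold change was 1.30 (standard error 0.26; adjusted p = 0.0699) and against WT replicate 2 alone 1.17 (standard error 0.39; adjusted p = 0.553, edgeR, Benjamini-Hochberg). Without GIRK1 replicate 2 these became 0.825 and 0.686. In that last comparison 0 of the 9 genes passed the adjusted threshold, where 0.229% of 11770 genes did, and DSP alone passed the unadjusted one, where 3.76% of genes were higher. There 8 of the 9 had positive values, against 50.9% of all genes. The study's own criterion, a 2-fold change with a replicate coefficient of variation below 0.7, was met by DSP alone of the 10, as it was by 4.75% of 13191 genes in the upward direction.

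The adjusted result for DSP depended on the libraries, the tool, the filter on low counts and whether the replicate number was a block in the fit. It passed in 5 of 12 alternatives of the eGFP comparison, DESeq2 and the block among them, with log2 fold changes from 0.90 (without GIRK1 replicate 2) to 1.74 (without GIRK1 replicate 1) throughout. Without eGFP replicate 1 the adjusted p was 0.0219, and PKP2 (0.0235) and PERP (0.0317) passed beside it (edgeR, Benjamini-Hochberg), where 6.21% of all genes passed. With no filter on low counts DSP (adjusted p = 0.00431) and DSC3 (0.0396) passed in edgeR with Benjamini-Hochberg adjustment, where 5.92% of all genes did. Without eGFP replicate 2 DSP had an adjusted p of 0.0112, and DSC3 (0.00194) and DSG3 (0.0173) passed beside it by the same test, where 25.4% of all genes passed. Against the 3 controls, leaving out eGFP replicate 1 passed DSP (adjusted p = 0.0157), PERP (0.0230), PKP2 (0.0272) and JUP (0.0472) in edgeR, where 8.74% of all genes passed.

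PERP, a membrane protein needed for desmosome assembly in stratified epithelia, measured 76.5 and 44.5 RPM in eGFP, 52.6 RPM in WT replicate 2 and 116.1 and 73.8 RPM in GIRK1. GIRK1 replicate 2 fell just under eGFP replicate 1, so the groups overlapped. Its log2 fold change was 0.60 against eGFP (standard error 0.36, adjusted p = 0.393) and 0.68 against the 3 controls (standard error 0.31; adjusted p = 0.291, edgeR with Benjamini-Hochberg adjustment). Against eGFP it became 1.105 without eGFP replicate 1, 0.208 without eGFP replicate 2 and 0.251 without GIRK1 replicate 1, and without the last it was 0.342 against the 3 controls.

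Ratios between related genes within 1 library do not depend on its depth. The log2 ratio of DSC2 to DSC3 was -0.25 in WT replicate 2, 1.02 and 0.14 in eGFP and -0.75 and -0.58 in GIRK1. It was lowest in the 2 GIRK1 libraries, 0.97 lower in the mean than in the 3 controls, though eGFP replicates alone differed by nearly as much. For PKP2 to PKP3 the log2 ratio was -0.82 in WT replicate 2, -0.86 and -1.10 in eGFP and -0.43 and -0.06 in GIRK1, so both GIRK1 libraries stood above every control by a mean of 0.68. The ratio of DSG2 to DSG3 was 1.25 in WT replicate 2, 1.88 and 0.78 in eGFP and 1.56 and 0.88 in GIRK1, which overlapped. With 2 libraries against 3 the smallest one-sided p of an exact permutation test is 0.1, so these ratios are given without a test.

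**Figure D3:**
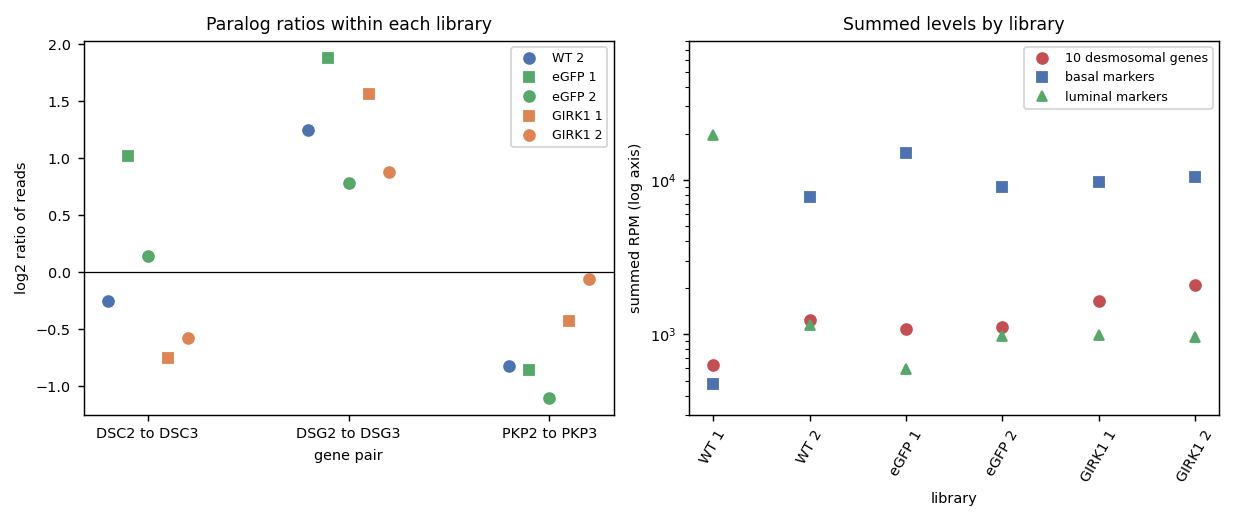
Left, log2 ratio of reads (vertical axis) of 3 pairs of related desmosomal genes in 5 libraries (squares for replicate 1, circles for replicate 2), with GIRK1 lowest for DSC2 to DSC3 and highest for PKP2 to PKP3. Right, summed RPM (vertical log axis) of the 10 desmosomal genes, 8 basal markers and 12 luminal markers in each library, where WT 1 has 629 RPM for desmosomal genes, 473 RPM for basal and 19619 RPM for luminal markers.

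Summed over the 10 genes the level was 1082 and 1118 RPM in eGFP, 1232 RPM in WT replicate 2 and 1644 and 2094 RPM in GIRK1. Without DSP the other 9 summed to 762 and 791 RPM in eGFP, 841 RPM in WT replicate 2 and 1016 and 994 RPM in GIRK1. Most of the difference in summed RPM was thus DSP. The sum weighs each gene by how well its amplicon amplifies, so this is not a share of transcripts.

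The keratins that desmosomes anchor differed among themselves. Of 7 listed keratins of basal and stratified epithelium, 6 were tested against eGFP, 2 passed as higher and 0 as lower. Of all genes tested 1.53% passed in either direction. KRT17 measured 853 and 952 RPM in eGFP, 1570 RPM in WT replicate 2 and 3800 and 4513 RPM in GIRK1, and rose by 2.17 on the log2 scale (standard error 0.22; adjusted p = 0.0104, edgeR with Benjamini-Hochberg adjustment). KRT16 measured 27.1 and 26.0 RPM in eGFP, 26.0 RPM in WT replicate 2 and 73.2 and 62.1 RPM in GIRK1, and rose by 1.31 on the log2 scale (adjusted p = 0.0471 by the same test). In both, GIRK1 lay above every control, and both passed against the 3 controls (adjusted p = 0.0278 and 0.0178, edgeR, Benjamini-Hochberg). Neither passed against WT replicate 2 alone, a single library, where the log2 fold changes were 1.43 for KRT17 and 1.40 for KRT16. KRT5 had a log2 fold change of -1.08 (adjusted p = 0.170), with 10660 and 5741 RPM in eGFP against 4018 and 4052 RPM in GIRK1, and with 3862 RPM in WT replicate 2. KRT15 had 1.28 against eGFP (adjusted p = 0.188, edgeR), with 67.7 and 109.9 RPM in eGFP and 167.3 RPM in WT replicate 2. Its GIRK1 values were 316.2 and 127.4 RPM, so GIRK1 replicate 2 lay below WT replicate 2. KRT14 had -0.59 (adjusted p = 0.362) and KRT6A 0.14 (adjusted p = 0.839) by the same test, and KRT6B had 0 reads throughout. Amplicons of KRT14, KRT16, KRT17 and the KRT6 genes can share reads with close relatives, and these values are less certain. Of the simple-epithelial keratins, 3 were tested and 0 passed (KRT7 -0.56, KRT8 -0.26, KRT18 -0.13 on the log2 scale).

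Other genes around the desmosome did not pass the adjusted threshold against eGFP in the edgeR test, where 1.53% of all genes did. At that share, 0 passing in a short list does not set the list apart. DSG1, DSG4 and DSC1, cadherins of the upper epidermis, had 0 reads in every library, and of the other 4 related genes 3 were tested (PPL 0.46, PKP4 -0.30, EVPL -0.67, log2 fold changes) and 0 passed. Of the adherens junction genes 9 of 11 were tested and 0 passed, among them E-cadherin (CDH1, 0.05) and β-catenin (CTNNB1, -0.59). VCL differed most among them, at -3.52 (adjusted p = 0.157, edgeR, Benjamini-Hochberg), from few reads: 17 and 14 in eGFP and 0 and 4 in GIRK1. Of 14 transcription factors linked to desmosomal genes, 10 were tested and 0 passed. SNAI2, a repressor of epithelial cadherins, came nearest, with 164.6 and 86.3 RPM in eGFP, 61.8 RPM in WT replicate 2 and 47.1 and 41.4 RPM in GIRK1 (log2 difference -1.56, standard error 0.35; adjusted p = 0.0931, edgeR with Benjamini-Hochberg adjustment). Of 12 proteases, kinases and partners linked to desmosome turnover, 12 were tested and 0 passed. Fibroblast markers summed to 8.60 to 13.7 RPM in the 3 controls and to 31.9 and 33.5 RPM in GIRK1, where DCN, a secreted proteoglycan, made up 27.0 and 25.2 RPM (log2 fold change 3.37, adjusted p = 0.0372 by the same test), while COL1A2, PDGFRA and THY1 had 0 reads. DCN did not pass against the 3 controls (2.29, adjusted p = 0.145) or against WT replicate 2 alone (1.37, adjusted p = 0.661, edgeR, Benjamini-Hochberg), and it had 0.780 and 3.71 RPM in eGFP against 10.2 RPM in WT replicate 2 (adjusted p = 0.953 by the same test). Of the 8 basal markers 7 were tested against eGFP, with 5 lower, a median of -0.59 and KRT17 alone passing. ITGA6 had -1.47 (adjusted p = 0.0851, edgeR, Benjamini-Hochberg). Of the 12 luminal markers 7 were tested, with 4 higher, 3 lower, a median of 0.58 and 0 passing (AGR2 2.71, EPCAM 0.69). Against WT replicate 2 alone the medians were 0.08 for basal and -0.24 for luminal markers. The part of other cells in the desmosomal values was not tested.

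The library labelled WT replicate 1 showed a different set of desmosomal transcripts. Of the 10 genes, 6 were at least 2-fold below the lowest of the other 5 libraries (11.0% of 12324 genes were), 1 was at least 2-fold above the highest (15.9% were) and 3 were within 2-fold of the range. It was held apart from the group comparisons above, and these values are given without a test.

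The basal cadherins were not detected there. DSC3 and DSG3 had 0 of 2506120 reads, which allows up to 1.20 RPM by the 3-read level (the upper end of the exact interval plotted is 1.47 RPM). Set against the 3-read level, DSC3 was at least 28.0-fold lower than in the lowest of the other libraries and DSG3 at least 39.9-fold lower. At the level of WT replicate 2, 204 and 221 reads of them would have been counted. DSC2 had 1 read where 172 would have been counted, a ratio of 128 to the lowest other library with a counting interval of 23.0 to 5071. DSG2 had 40 reads, or 16.0 RPM, 11.0-fold below the lowest other library (interval 8.10 to 15.4). Only 2.04% of genes were 10-fold or more below the other 5 libraries, and these 4 genes, all of the chromosome 18 group, were among them.

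The plaque genes had values nearer to those of the other libraries, or above them. PKP3 was 3.12-fold and PKP2 2.42-fold below the lowest other library (35.9 and 21.5 RPM). DSP (193.1 RPM) was 1.66-fold and PERP (35.5 RPM) 1.25-fold below. JUP had 313 RPM, 1.42-fold above the highest other library, and its log2 ratio to DSG2 was 4.29 against -0.66 to 0.08 in the other 5. PKP1 had 33 reads (13.2 RPM) there, at least 22.5-fold above the highest 3-read level of the other 5. All counting intervals and 3-read levels leave out errors of amplification, in which 1 molecule can give many reads.

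**Figure D4:**
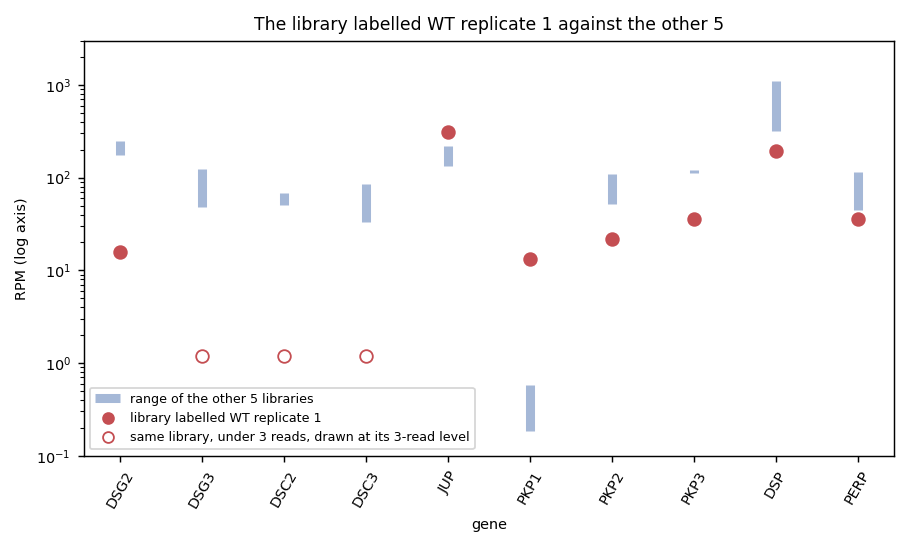
RPM on a log axis (vertical) of the 10 desmosomal genes in the library labelled WT replicate 1 (circles) and the range of the other 5 libraries (blue bars), with values under 3 reads drawn at the 3-read level of their library. The open circles of DSG3, DSC2 and DSC3 stand far under the bars, JUP stands above its bar, and PKP1 has 13.2 RPM where the other 5 libraries are at or under their 3-read level.

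Its other junction genes and keratins were in part different. Of the 11 adherens junction genes, 2 were at least 2-fold below the other 5 libraries and 3 at least 2-fold above. Over all genes 11.0% were below and 15.9% above. The other 6 were within 2-fold of the range, among them CTNNA1 and CTNNB1. Of those 6, VCL had 0 reads there and 0 to 17 elsewhere, and CTNND1 had 2 reads there and 2 to 25 elsewhere. Such low counts cannot show likeness. Of the 7 keratins of basal and stratified epithelium 6 were below and 1 was not read, and of the 4 keratins of simple epithelium 1 was below and 3 were above. CDH1 had 672 RPM against 96.3 to 116 RPM in the other 5 libraries, whereas P-cadherin (CDH3), a cadherin of basal cells, had 47.1 RPM against 207 to 289 RPM. KRT8 had 3288 RPM against 59.3 to 78.0 RPM, and KRT7 had 0 reads against 1151 to 1797 RPM. GRHL2, an activator of epithelial junction genes, had 260 reads there and 0 in the other 5, while TWIST1, a repressor of epithelial genes, had 0 reads there and 15.8 to 23.5 RPM in the others. Both were picked from the 14 listed factors. Of the same list, SNAI1 had 2.39 RPM there against 0.09 to 0.684 RPM, from only 6 reads there and 1 to 7 elsewhere. KLF5 had 76.2 RPM against 180 to 411 RPM, and SNAI2 had 2.39 RPM against 41.4 to 165 RPM. Higher there were GRHL1 (32.3 RPM against 0.489 to 1.84), OVOL1 (16.0 against 0 to 0.097) and KLF4 (219 against 25.9 to 54.2). PKP4, a plakophilin relative of cell contacts, had 55.9 RPM against 12.9 to 19.9 RPM, while EVPL and PPL were within 2-fold of the range.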

How the data were processed

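Read counts and RPM were used as the authors deposited them, 1 amplicon per gene, after their mapping to an amplicon transcriptome reference in the Ion Torrent software, whose version is not given in the sources used here. The deposited counts are whole reads, and the deposited RPM values are the counts scaled to the library total. Libraries were grouped by their GEO titles. The tests on counts were run in edgeR 4.0.16 under R 4.3.3 (TMM, filterByExpr, glmQLFit, glmQLFTest) over all genes passing the filter, with Benjamini-Hochberg adjustment and a threshold of 0.05. Standard errors come from the test's F value and 95% intervals from its degrees of freedom. Single libraries carry exact Clopper-Pearson intervals. The procedure was tested on simulated data, and no result of that test is given here.

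The genes described, the lists around them and the choice to hold the library labelled WT replicate 1 apart were made with earlier results of these data known. Named were all 10 desmosomal genes, KCNJ3, each listed gene called in a test, and members given with their values. PPL, SNAI2, CTNNB1 and the library-specific markers were picked for mention after their values were seen. Gene positions are from GENCODE 29 (GRCh38) by symbol, and promoters from RefSeq tables. AFDN and the nectins were matched by older symbols. A marker of the lists is not reported here. By the design text the replicates of a group would be 2 lines, and by the methods they are replicates. Alternatives were DESeq2 1.42.0 (its size factors, its test), total reads only, other filters, other library sets, the replicate block, the study's criterion and leaving out each library.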

Additional observations from a re-analysis of the deposited data

Results flagged for a closer look

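PKP1 measured 13.17 RPM (33 reads) in the library labelled WT replicate 1, which was held apart from the main group comparisons, and had 0 reads in both eGFP libraries and WT replicate 2. KCNJ3 measured 19.15 RPM (48 reads) in that library and had 0 reads in the same 3 controls. Both stand out as signals in a library outside the main comparisons, above the level in the controls.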

How the results depend on the processing

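All tests are edgeR's with Benjamini-Hochberg adjustment unless another tool is named, and the cause of a change was not tested. In the eGFP comparison, 0 desmosomal genes passed, and 2 did with no filter on low counts, 1 with the DESeq2 test, 1 by the 2-fold criterion and 0 to 3 when 1 library was left out. Over all genes the count of 172 became 881 with no filter, 111 with at least 10 reads in every library, 693 with the DESeq2 test, 1307 by the 2-fold criterion, 0 in a fit of all 6 libraries (606 unadjusted, smallest adjusted p = 0.221, DESeq2 93) and 97 (without GIRK1 replicate 2) to 2930 (without eGFP replicate 2) leaving out 1 library. The desmosomal median log2 fold change of 0.35 ran from 0.30 to 0.66 (without eGFP replicate 1) leaving out 1 library. Against the 3 controls, 1 passed with no filter, 2 with the DESeq2 test and 0 to 4 leaving out 1 library. The genes in all, 91 higher and 47 lower, became 377 with no filter, 801 with the DESeq2 test, 7 with WT replicate 1 kept and 19 (without GIRK1 replicate 2) to 985 (without eGFP replicate 1). The median of 0.38 became 0.68 with WT replicate 1 kept among the controls. Against WT replicate 2, 0 to 1 passed leaving out 1 library (DSP, adjusted p = 0.0260 without eGFP replicate 1), and the median of 0.27 ran from 0.24 to 0.395 (without GIRK1 replicate 1), or 1.10 with both WT replicates. The 27 genes in all became 133 with no filter, 16 with at least 10 reads in every library, 128 with the DESeq2 test, 0 with both WT replicates and 34 to 575 leaving out 1 library. The sign of 4 genes turned. Leaving out 1 library, DSG3 ran from -0.232 (without eGFP replicate 1) to 1.029 against eGFP, with -0.067 without GIRK1 replicate 2, from -0.067 (same library; -0.002 without eGFP replicate 1) to 0.593 against the 3 controls and from -0.066 (same library) to 0.539 against WT replicate 2. PKP3 ran from -0.051 (without eGFP replicate 2) to 0.077 against eGFP, with -0.011 without GIRK1 replicate 1, and from -0.006 to 0.056 against the 3 controls, with -0.001 for the same libraries. DSC2 became 0.103 with WT replicate 1 among the 3 controls, and with both WT replicates DSC2 was 0.621 and JUP -0.060. The replicate block gave 1 desmosomal gene (DSP, log2 fold change 1.32, adjusted p = 0.0433) and 589 genes in all. The r of replicate deviations across genes was 0.158 for eGFP and GIRK1, 0.133 for eGFP and WT and 0.041 for GIRK1 and WT. The values with WT rest on the library labelled WT replicate 1, so whether the numbers pair the libraries was not settled. The eGFP minus WT replicate 2 comparison called 0 of 11770 genes (418 unadjusted, DESeq2 5). Where a group is left with 1 library, that library is assumed to vary like the rest. With 2 libraries a group, log2 differences under about the printed intervals could not be resolved, and the depth of WT replicate 1 limits its low counts.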
